A study of Mus musculus with 8 samples.

Results

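The mRNAs of the cytosolic ribosomal proteins were followed in the livers of mice homozygous for a mutant Pus1 and of wild-type mice. The 78 genes described here are those with a mouse symbol beginning with Rpl or Rps and a digit, together with Rplp0, Rplp1, Rplp2 and Rpsa, among 17531 genes or unnamed transcripts tested. By symbol alone, 46 of these 78 were assigned to the large and 32 to the small ribosomal subunit. Pseudogenes, the ribosomal S6 kinases, symbols marking a like gene and the binding protein gene Rps19bp1 were left out, and of the 80 coding symbols in RefSeq that meet the rule, Rpl37 and Rps27rt had no probe named for them. The retrogenes Rpl37rt and Rps23rg1 met the rule and were kept, but since retrogenes derive from the mRNA of a parent gene, their probes may also read transcripts of Rpl37 and Rps23, and their values are uncertain on that account. Whether these retrogenes encode ribosomal proteins was not examined. All 78 genes had a probe well above background in all 8 livers, none was saturated, and so all 78 passed the filter on dim probes.

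The livers came from 4 mice homozygous for a mutant Pus1 and from 4 wild-type mice, all 14 to 16 weeks old and of C57BL/6J background with 5 generations of backcrossing. Each genotype comprised 2 females and 2 males. The labels do not describe the mutant allele beyond homozygous mutant and knockout. Each of 4 Agilent 2-colour arrays carried RNA of 1 mutant liver against 1 wild-type liver, matched for sex, females on arrays 1 and 2 and males on arrays 3 and 4, with the mutant in Cy5 on arrays 1 and 3 and in Cy3 on arrays 2 and 4. A replicate number is the number of the array. The quantities below are log2 ratios of mutant over wild type on an array, or log2 levels of a channel after normalization. Levels are compared between livers and not between genes, because each gene has its own probe.

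Pus1, which encodes an enzyme that turns uridine into pseudouridine in tRNA and other RNAs, checked the labels. Its probe was well above background in 0 of 4 mutant and 4 of 4 wild-type livers, with log2 levels of 6.31, 6.81, 6.64 and 6.75 in mutant livers and 8.45, 8.92, 8.46 and 8.82 in wild-type livers. Its level was at least 4.10-fold lower in mutant livers (log2 ratio −2.03 ± 0.11 SE, limma adjusted p = 0.0567), a lower bound since the probe was not well above background in the mutants. Hepatocyte markers were measured in all livers, 10 of 10 tested, with a summed log2 level of 20.6 to 20.9 in mutant and 20.3 to 20.9 in wild-type livers. Of these markers, 2 were saturated in at least 1 channel, which limits how far the sum can differ between livers. Between 36.8% and 44.0% of spots were well above background in a channel, with 36.8% to 37.9% in the male and 42.2% to 44.0% in the female livers. Precision rests on having 4 arrays, and in whole liver RNA fewer cells of a type and less RNA per cell cannot be told apart.

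Ribosomal proteins are made in near-equal numbers, since a subunit holds most of them as a single copy, and surplus protein is degraded. Large-subunit proteins surround the peptidyl transferase centre and the exit tunnel for the growing chain, and small-subunit proteins surround the path of the mRNA and the decoding centre. Their mRNAs are among the most abundant of the cell and begin with a run of pyrimidines at the cap, the terminal oligopyrimidine or TOP motif, through which mTOR signalling and LARP1 set their translation. Ribosomal RNA carries many pseudouridines, most of them placed by the dyskerin complex with guide RNAs rather than by stand-alone enzymes such as PUS1.

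No ribosomal protein mRNA passed the test of a difference between mutant and wild-type livers. With limma, Benjamini-Hochberg adjustment over all genes tested and a threshold of 0.05, 0 of 78 members passed, where 0% of all genes passed. At an unadjusted p under 0.05 the count was also 0 of 78, against 8.90% of all genes. The fitted log2 ratios ran from −0.29 for Rps2 to 0.18 for Rpl41, with a median of −0.06 over the 78 genes and −0.01 over all genes tested. The adjusted p-values of the members lay between 0.541 and 0.996.

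The spread of the members was set beside that of all genes. An absolute log2 ratio over 0.25, which is 1.19-fold, was fitted for 2 of 78 members (2.56%), Rps2 and Rps12, against 22.0% of all genes. The standard deviation of the fitted ratio over genes was 0.09 for the members and 0.25 for all genes. The 95% interval of the fitted ratio lay within 0.5 of 0 on the log2 scale, a 1.41-fold difference, for 72 of 78 members (92.3%) and for 64.8% of all genes. These shares and spreads are descriptions with no test. All members but Rps23rg1 had bright probes, with a mean log2 intensity of 12.13 to 17.21, while all genes ran from 6.68 to 18.76. The part of probe brightness and of loess normalization in the narrower spread was not tested.

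**Figure D1:**
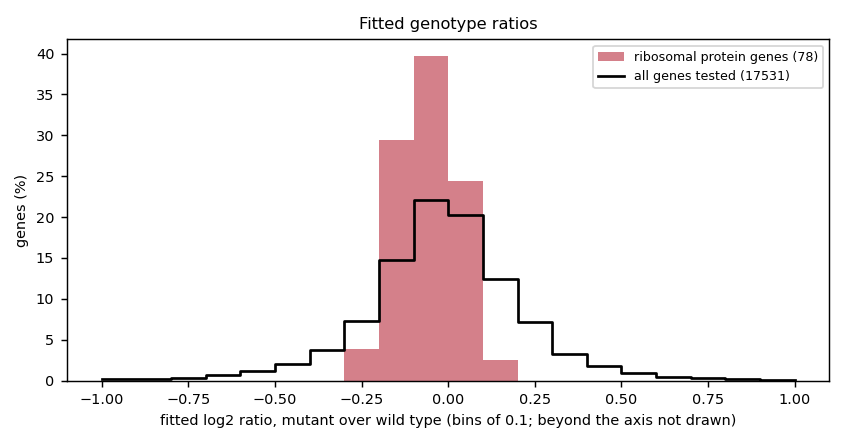
Share of genes (%) in bins of 0.1 of the fitted log2 ratio of mutant over wild type, as filled bars for the 78 ribosomal protein genes and as a line for all 17531 genes tested. All 78 ratios lay between −0.29 and 0.18, while 22.0% of all genes were more than 0.25 from 0.

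The number of members below 0 varied with the processing. With loess within each array, 57 of 78 members had a fitted ratio below 0 (34 of 46 of the large and 23 of 32 of the small subunit), where 53.0% of all genes were below 0. With median centring in place of loess, 21 of 78 were below 0, and the median was 0.06 over the members and 0.03 over all genes tested. In the authors' deposited series table, 40 of 78 were below 0, with a median of −0.0013 over the members and −0.0041 over all genes tested. With the mean over all probes of a gene, 50 of 78 were below 0. With the processed signals of the scanner files, 57 of 78 were below 0, with a median of −0.04. Without array 2 the median over the members was −0.02.

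Large and small subunit genes had like medians, and the sign of their difference varied between arrays. The median log2 ratio of the large-subunit genes was −0.07, −0.13, −0.05 and 0.01 on arrays 1 to 4, and that of the small-subunit genes was −0.11, −0.08, −0.08 and 0.01. Over all genes tested it was 0.00, −0.05, 0.02 and −0.02 on the same arrays. The large minus small difference was 0.04, −0.06, 0.02 and −0.00 on the 4 arrays, with a mean of 0.00 and an SD of 0.04. The mean was thus smaller than the spread between arrays.

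The medians of the livers gave the same picture across subunits. For each gene the log2 level of a liver was set against the mean of that gene over the 8 livers. The median of these values over the large subunit was 0.01, −0.10, −0.04 and 0.02 in mutant livers 1 to 4 and 0.12, 0.02, 0.02 and 0.01 in wild-type livers 1 to 4. Over the small subunit it was 0.02, −0.10, −0.04 and 0.01 in mutant livers and 0.10, −0.03, 0.04 and −0.02 in wild-type livers. In both subunits mutant liver 2 was lowest and wild-type liver 1 was highest, and the genotypes overlapped. As means over livers, the large subunit stood at −0.03 ± 0.06 in mutant and 0.04 ± 0.05 in wild-type livers (SD, n = 4 each), and the small subunit at −0.03 ± 0.06 in mutant and 0.03 ± 0.06 in wild-type livers (SD, n = 4 each).

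**Figure D2:**
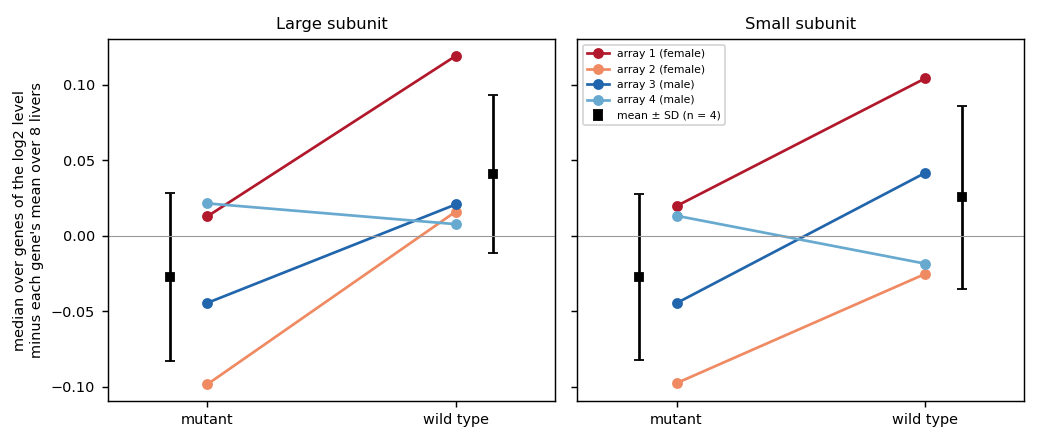
Median over the genes of each subunit of the log2 level in a liver minus the mean of the gene over the 8 livers, mutant left of wild type, with lines joining both livers of an array and squares with bars giving the mean ± SD (n = 4). Wild-type liver 1 was highest in both panels and mutant liver 2 lowest, and the line of array 4 slopes against the lines of arrays 1 to 3.

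A ratio of the same sign on all 4 arrays was seen for 12 of 78 members (15.4%), against 17.7% of all genes. It was below 0 for 11 members, against 8.68% of all genes, and above 0 for Rplp0 alone. The 8 with the lowest fitted ratios among these 11 were Rps12, Rpl17, Rps25, Rps27, Rpl13a, Rpl22, Rpl4 and Rps24. Mutant and wild-type levels did not overlap for 3 of 78 members, Rps12, Rpl17 and Rps25, against 2.16% of all genes.

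Rps12, a protein of the beak of the small subunit, came nearest to the threshold. Its log2 level was 15.99, 15.80, 16.00 and 15.91 in mutant livers and 16.12, 16.24, 16.25 and 16.11 in wild-type livers. Every mutant liver was below every wild-type liver. The fitted log2 ratio was −0.25 ± 0.11 (SE), with an unadjusted p of 0.0565 and an adjusted p of 0.541 from limma, and its second probe gave −0.23.

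Rpl17, a large-subunit protein at the rim of the exit tunnel, had log2 levels of 14.54, 14.42, 14.45 and 14.46 in mutant livers and 14.77, 14.82, 14.54 and 14.54 in wild-type livers. The groups did not overlap, though the male livers on arrays 3 and 4 differed by only −0.09 and −0.08. Its 7 probes gave fitted log2 ratios between −0.20 and −0.01, all below 0, and limma's adjusted p of the probe used was 0.559. Rps25, a small-subunit protein known for its part in initiation at viral internal ribosome entry sites, had log2 levels of 14.91, 14.86, 14.92 and 15.05 in mutant livers and 15.07, 15.07, 15.17 and 15.18 in wild-type livers. As for Rps12 and Rpl17, the gap between the groups was narrower than the range within either. The fitted log2 ratio of Rps25 was −0.19 ± 0.10 (SE). Its second probe gave 0.0052, and the mean of both probes gave −0.09.

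The other members below 0 on all 4 arrays were nearer to 0. Rps27, a zinc-finger protein of the small subunit, had ratios of −0.26, −0.15, −0.27 and −0.05, and Rpl13a, known for translational silencing outside the ribosome, had −0.21, −0.32, −0.03 and −0.14. Rpl22, an RNA-binding protein that is dispensable for translation at large, had −0.11, −0.31, −0.14 and −0.02. Rpl4, whose loop lines the exit tunnel, had −0.07, −0.20, −0.07 and −0.18, and Rps24, mutated in some patients with Diamond-Blackfan anaemia, had −0.12, −0.07, −0.21 and −0.06. For all 5 the levels of mutant and wild-type livers overlapped, and the adjusted p-values of limma lay between 0.554 and 0.667. With median centring in place of loess, the fitted ratio of Rps24 was 0.0011. Other probes gave fitted log2 ratios of 0.02 and 0.03 for Rpl13a, −0.03 for Rpl22, and −0.21 and −0.00 for Rps24, and the mean over the 3 probes of Rpl13a was −0.04.

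The genomic DNA around the annotated starts of these genes was searched for a run of pyrimidines. Of the 78 members, 58 matched a window around the annotated start in RefSeq's GRCm38.p6. A run of at least 8 C or T on the coding strand touching the 30 bases around the start was present in 30 of 58 members (51.7%), against 20.04% of 27025 genes. Shown are 6 of the members named above for a constant sign, chosen because their windows hold a run, and Rpl5, whose levels differed most between the sexes after Rps3a1. Each sequence is the 30 bases around the annotated start, 15 on either side, from the 5′ to the 3′ end, and capitals mark the bases of the run within these 30.
Rps12 (chr10:23787195-23787224, minus strand): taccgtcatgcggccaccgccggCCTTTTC
Rps25 (chr9:44407699-44407728, plus strand): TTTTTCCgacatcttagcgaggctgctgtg
Rps27 (chr3:90213634-90213663, minus strand): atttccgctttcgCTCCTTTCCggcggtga
Rpl13a (chr7:45128731-45128760, minus strand): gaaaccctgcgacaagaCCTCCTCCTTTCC
Rpl4 (chr9:64173372-64173401, plus strand): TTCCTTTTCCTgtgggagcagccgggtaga
Rps24 (chr14:24490663-24490692, plus strand): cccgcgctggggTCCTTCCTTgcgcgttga
Rpl5 (chr5:107900513-107900542, plus strand): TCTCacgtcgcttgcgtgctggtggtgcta
The run lies at or next to the middle of the window in Rps27 and Rps24, and at either edge in the others. In Rps25, Rpl4 and Rpl5 it lies before the annotated start, and in Rps12 and Rpl13a it begins after it. Whether the mRNAs begin with the run, as a TOP motif does, was not tested. The windows of Rpl22 and Rplp0, also of constant sign, hold no run. The median fitted log2 ratio was −0.08 over the 30 members with a run and −0.04 over the 28 without, a difference within the spread of either set, which reached from −0.25 to 0.09 with and from −0.29 to 0.18 without a run.

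**Figure D3:**
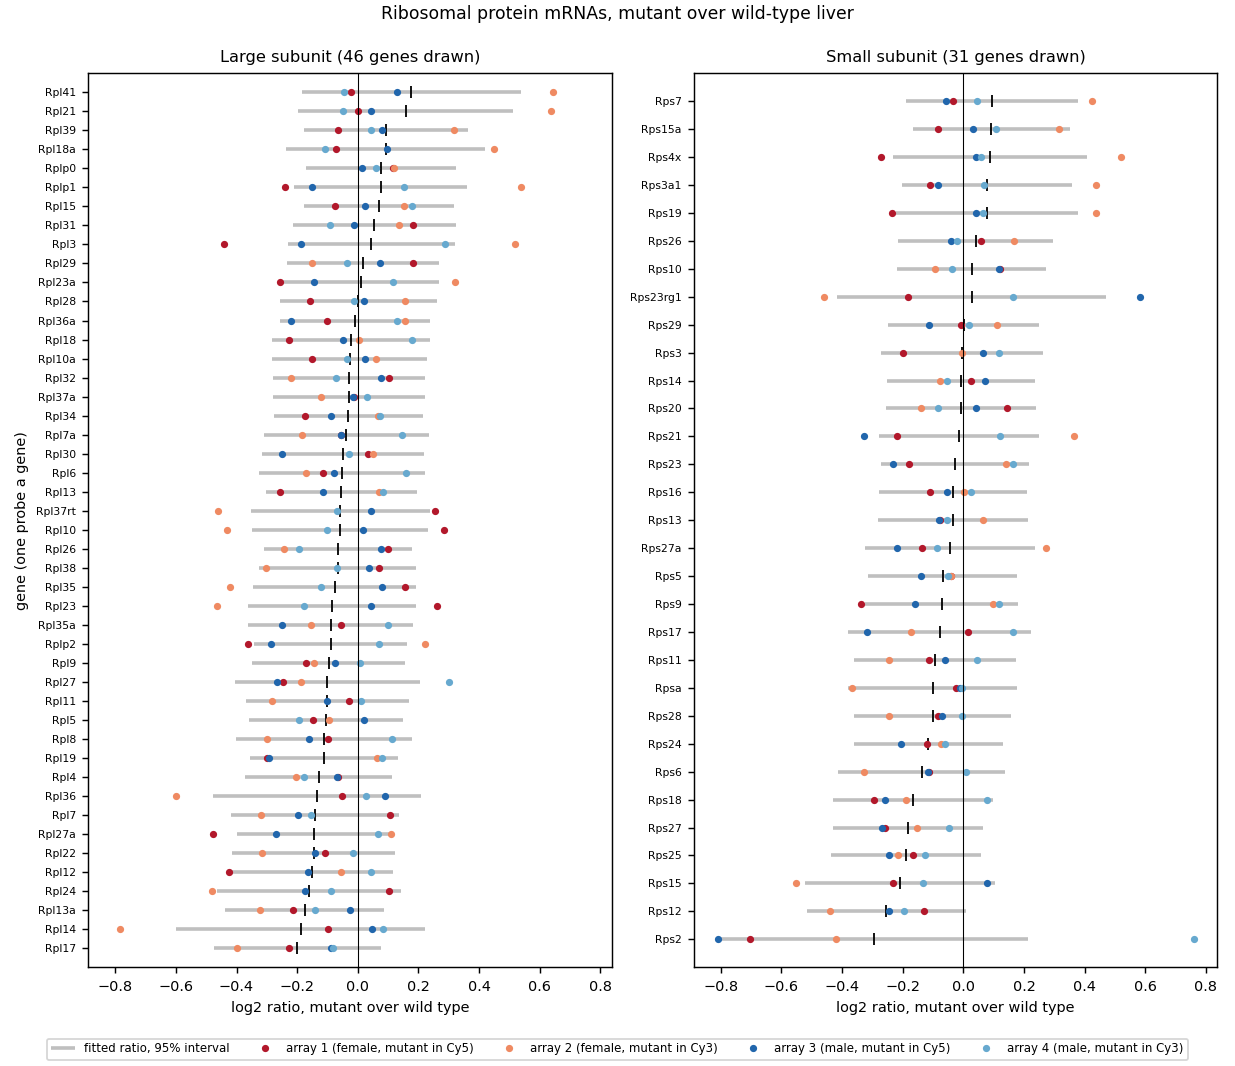
Log2 ratio of mutant over wild type for the 46 large-subunit genes and 31 of the 32 small-subunit genes, as coloured points for the 4 arrays, a black tick for the fitted ratio and a grey bar for its 95% interval. The interval crosses 0 for every gene drawn, and array 2 holds the widest ratio for 44 of the 78 members.

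Rps2, a small-subunit protein at the entry of the mRNA channel, had the lowest fitted ratio but not a consistent one. Its log2 level was 14.76, 14.84, 14.61 and 15.33 in mutant livers and 15.46, 15.26, 15.42 and 14.57 in wild-type livers. Arrays 1 to 3 gave −0.70, −0.42 and −0.81, and array 4 gave 0.76, so that the fitted ratio was −0.29 ± 0.20 (SE; limma adjusted p = 0.614). Without array 4 it was −0.59, and Rps2 was then the only member that passed (adjusted p = 0.0394), in a fit that called 8.50% of all genes. The second probe of Rps2 gave a fitted log2 ratio of 0.42 over all 4 arrays, the widest disagreement between probes of a member, and the mean of both probes gave 0.06.

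Of the 50 members with more than 1 kept probe, 20 had probes with fitted ratios of both signs, and the median range between probes of a gene was 0.11. The range was widest for Rps2 (−0.29 to 0.42) and Rpsa (−0.22 to 0.37). Ribosomal protein genes have many processed pseudogene copies, and which transcripts each probe reads was not tested.

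The stalk proteins recruit the elongation factors to the ribosome. Rplp0, the base of the stalk, was the member above 0 on all 4 arrays, with ratios of 0.12, 0.12, 0.01 and 0.06 and a fitted log2 ratio of 0.08 ± 0.10 (SE). Its partners Rplp1 (ratios −0.24, 0.54, −0.15 and 0.15) and Rplp2 (−0.36, 0.22, −0.29 and 0.07) took the sign of the dye on the mutant, below 0 on arrays 1 and 3 and above 0 on arrays 2 and 4. Rpsa, the laminin receptor homologue of the small subunit, had −0.02, −0.37, −0.01 and −0.00.

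Other members alternated in the same way. Rpl3, a protein next to the peptidyl transferase centre, had ratios of −0.44, 0.52, −0.19 and 0.29, and a dye coefficient of −0.36, that is lower in Cy5 (unadjusted p = 0.0193). It was the only one of 78 with an unadjusted p under 0.05 for dye, against 7.35% of all genes (2.38% lower in Cy5), and 0 of 78 passed after adjustment, where 0% of all genes did. The dye coefficient was larger in size than the genotype ratio for 42 of 78 members, and for 8334 of 17531 genes tested. Across the 78 genes, which share their arrays and are not independent, the ratios correlated at 0.50 between arrays 1 and 3 and 0.17 between arrays 2 and 4, both pairs of the same dye orientation, while over all genes they correlated at 0.23 and 0.30. Between arrays of opposite orientation the correlations were −0.60 (1 and 4), −0.44 (3 and 4), −0.23 (1 and 2) and −0.05 (2 and 3), while over all genes they were 0.02, −0.24, 0.25 and 0.16.

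**Figure D4:**
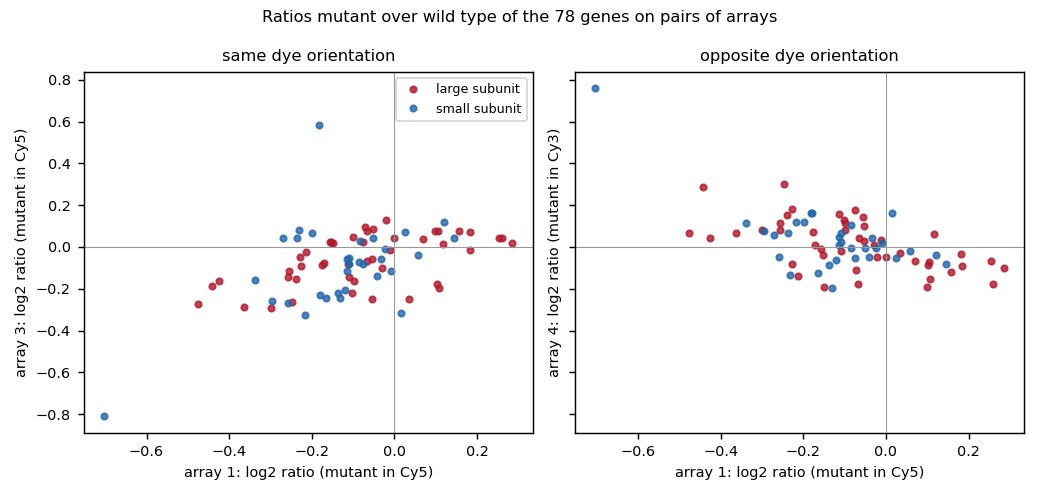
Log2 ratios of mutant over wild type of the 78 genes on array 3 (left, same dye orientation) and array 4 (right, opposite orientation) against array 1, coloured by subunit. The points run upward on the left (correlation 0.50) and downward on the right (−0.60).

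Array 2 carried the widest ratios. It held the widest of the 4 ratios for 44 of 78 members (56.4%), against 51.7% of all genes, and the SD of the ratios over members was 0.32 there and 0.14 to 0.17 on the other arrays. Over all genes tested the SD was likewise widest on array 2, at 0.62, against 0.27 to 0.35 on the other arrays. Rpl41, a very short protein of the large subunit, had the highest fitted ratio of the members, with ratios of −0.02, 0.64, 0.13 and −0.05. Rpl21 was alike, with −0.00, 0.64, 0.04 and −0.05. Rpl14 and Rpl36 were at the other end on array 2, with −0.78 and −0.60, against ratios from −0.10 to 0.09 on the other arrays.

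Pus1 lies on chromosome 5, and the members within 20 Mb of it in RefSeq were Rpl5, Rpl37rt, Rplp0 and Rpl6, with fitted log2 ratios of −0.10 ± 0.10, −0.06 ± 0.12, 0.08 ± 0.10 and −0.05 ± 0.11 (SE). None passed the test, and their signs differed.

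The promoters were searched for CCGGAAG on both strands, a form of the site bound by ETS factors such as GABP, whose reverse complement holds pyrimidines that can overlap with a pyrimidine run. It was present in the 300 bases around the start, 250 before and 50 after, in 23 of 58 members (39.7%) and in 9.93% of 27025 genes. The median fitted log2 ratio was −0.07 over the 23 members with the motif and −0.06 over the 35 without. Shown are the 100 bases before the start of a member among the lowest ratios (Rps25), of that with the highest fitted ratio (Rpl41) and of that with the widest sex difference (Rps3a1), from RefSeq's GRCm38.p6, with the motif in capitals.
Rps25 (chr9:44407614-44407713, plus strand): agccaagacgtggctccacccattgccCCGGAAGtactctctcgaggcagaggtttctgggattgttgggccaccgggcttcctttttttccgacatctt
Rpl41 (chr10:128549169-128549268, minus strand): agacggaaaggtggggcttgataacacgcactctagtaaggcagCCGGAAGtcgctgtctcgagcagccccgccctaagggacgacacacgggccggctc
Rps3a1 (chr3:86142669-86142768, minus strand): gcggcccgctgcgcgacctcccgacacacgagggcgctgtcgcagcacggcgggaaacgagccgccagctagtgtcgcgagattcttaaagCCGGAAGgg
Only windows with the motif were printed, so its presence in these genes was fixed by that choice. Of the members with the lowest fitted log2 ratios, Rps2 (−0.29) held the motif and Rps12 (−0.25) did not. A match is a description of the letters and no measure of binding.

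Livers of males and females were compared on different arrays, since both livers of an array were of the same sex. In limma's separate-channel fit, 0 of 78 members passed at an adjusted p of 0.05, against 0.211% of all genes (37 genes), and the median male minus female log2 difference was 0.02 over the members (0.03 for the large and 0.01 for the small subunit) and −0.00 over all genes. At an unadjusted p under 0.05 there were 3 of 78, Rps3a1, Rpl5 and Rps15, against 16.5% of all genes. Male and female levels did not overlap for 9 of 78 members (11.5%), against 24.7% of all genes. On simulated data this fit called 0 of 200 differences, so a second one on the mean of both channels of each array was added after the data were seen. It called 1 of 78 members, Rps3a1, against 12.1% of all genes.

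Rps3a1, a small-subunit protein on the solvent side, had the widest difference of the members. Its log2 level was 12.85 and 12.98 in male mutant and 12.93 and 12.91 in male wild-type livers, against 13.75 and 13.71 in female mutant and 13.86 and 13.28 in female wild-type livers. All 4 males were below all 4 females, in both genotypes. The male minus female log2 difference was −0.73 ± 0.20 (SE), with an adjusted p of 0.196 in the separate-channel fit and of 0.0336 in the fit on array means. In the separate-channel fit without array 2 it passed (−0.89, adjusted p = 0.0365), where 8.70% of all genes did.

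Rpl5, which with Rpl11 binds 5S rRNA and can hold back the p53 ligase Mdm2, had log2 levels of 11.88 and 11.82 in male mutant and 11.86 and 12.01 in male wild-type livers, against 12.38 and 12.24 in female mutant and 12.53 and 12.33 in female wild-type livers. The sexes did not overlap. The difference was −0.48 ± 0.17 (SE), with an adjusted p of 0.254 in the separate-channel fit and of 0.0587 on array means, so it passed neither. With no block for the array, Rps3a1 and Rpl5 both passed (adjusted p = 0.0186 and 0.0317), in a fit that called 18.6% of all genes.

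Males and females were apart within each genotype, in the same direction, for 15 of 78 members, against 5622 of the 17531 genes tested. Of these members, Rps7, Rpl9 and Rpl4 also stood lower in males, with log2 differences of −0.37, −0.35 and −0.33. Rpsa, Rps10, Rpl37a, Rpl38 and Rps27 stood higher in males, with 0.27, 0.24, 0.21, 0.20 and 0.19. None of these passed either fit. Rps15, with a difference of 0.35 ± 0.14 (SE) and males and females that overlap, did not pass after adjustment (adjusted p = 0.297). The share of spots well above background, lower in males, moved with sex. So did some of the marker lists described below. Their median male minus female log2 difference was 2.20 for red cells, with 4 of 4 genes higher in males. It was 0.77 for cell cycle genes (13 of 16 higher) and −0.45 for hepatocytes (8 of 10 lower). In the other cell types it lay between −0.30 for lymphocytes and 0.10 for cholangiocytes. The part of the spot share and of these markers in the values of the members was not tested.

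**Figure D5:**
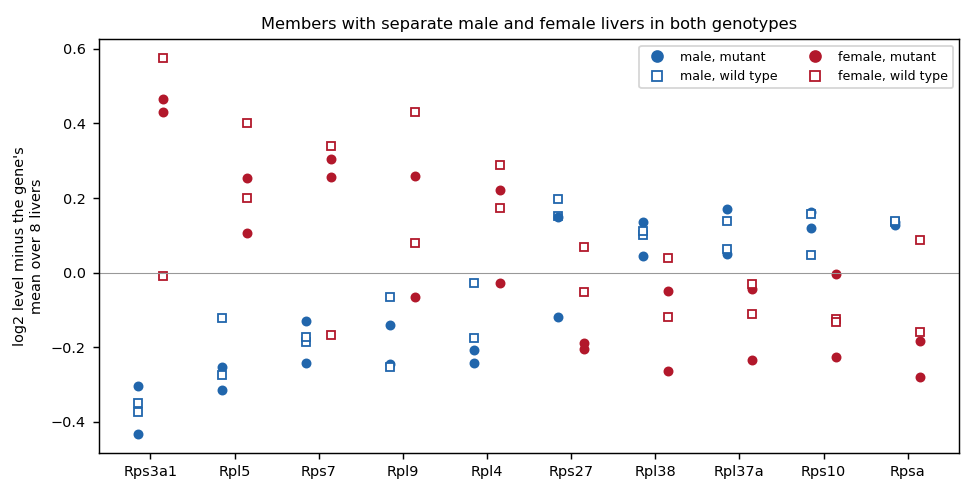
Log2 level in each liver minus the mean of the gene over the 8 livers, for the 10 members named for sex, males left of females, filled points for mutant and open squares for wild-type livers. For Rps3a1 and Rpl5 all 4 males lie below all 4 females, and Rps7 shows 1 wild-type female beside the males.

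The members on chromosome X did not stand out by sex. The male minus female log2 difference was −0.19 for Rpl10, −0.06 for Rpl36a, 0.15 for Rpl39 and 0.14 for Rps4x, the small-subunit protein whose gene escapes X inactivation in humans. Each was smaller than its standard error of 0.15 to 0.30.

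The genotype ratio was compared between the sexes in a fit with 1 residual degree of freedom. Of the 78 members 0 passed, as did 0% of all genes. The median over the members was −0.09 in females and −0.02 in males, and over all genes −0.02 and −0.0005. The median female minus male difference was −0.04 over the members and −0.03 over all genes. Rps23rg1 was the only member with an unadjusted p under 0.05, against 5.83% of all genes. This retrogene had the dimmest probe of the members, at a mean log2 intensity of 8.57. Its ratios were −0.18 and −0.46 on the female and 0.58 and 0.16 on the male arrays, a female minus male difference of −0.70 ± 0.21 (SE; adjusted p = 0.824). The next lowest differences were −0.54 for Rps2, −0.51 for Rpl14 and −0.38 for Rpl36, and the highest were 0.32 for Rpl21, 0.27 for Rpl41, 0.22 for Rps27a and 0.21 for Rpl31, with adjusted p-values of 0.824 or more.

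Ribosomal proteins and paralogs named outside the rule were tested too. Fau, which encodes a ubiquitin-like protein fused to a small-subunit protein, had a fitted log2 ratio of −0.09 ± 0.10 (SE). Rack1, a signalling scaffold on the small subunit, had 0.01 ± 0.11. All 5 tested paralogs of 8 listed had fitted ratios above 0, but 0 of 5 had the same sign on all 4 arrays, and none passed. They were Rpl7l1 (0.36 ± 0.17), Rps27l (0.18 ± 0.12), Rpl22l1 (0.12 ± 0.11), Rps4l (0.10 ± 0.12) and Rpl36al (0.02 ± 0.10, each ± SE). Without array 2 the ratio was 0.15 for Rpl7l1, 0.04 for Rpl22l1 and −0.0045 for Rpl36al. Rpl36al was at −0.02 without array 1, and Rps4l at −0.02 without array 3. Rpl22l1 and its parent Rpl22, a pair in which the loss of Rpl22 raises Rpl22l1 in mice, had ratios of −0.36, 0.70, −0.23 and 0.37, and of −0.11, −0.31, −0.14 and −0.02 on arrays 1 to 4. The ratios of Rpl22l1 took the sign of the dye on the mutant, below 0 on arrays 1 and 3 and above 0 on arrays 2 and 4.

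The machinery around the ribosome was likewise without a call. Of 17 other mRNAs with a TOP motif, such as those of elongation factors, 7 had a fitted ratio above and 10 below 0, with a median of −0.09. At an unadjusted p under 0.05, where 8.90% of all genes were found, there were Eef1g (0.39 ± 0.14) and Eif3f (0.34 ± 0.12), a subunit of an initiation factor. Of 56 listed assembly factors and RNA polymerase I genes 49 were tested, 26 above and 23 below 0, with a median of 0.03. Among them Npm1, the nucleolar chaperone (−0.33 ± 0.12), Utp14a (−0.51 ± 0.18) and Tbl3 (0.33 ± 0.13), both of the small-subunit processome, had an unadjusted p under 0.05. Of 21 listed regulators such as Mtor and Larp1, 17 were tested, 8 above and 9 below 0 (median −0.03). Of 11 elongation genes 7 were above and 4 below 0 (median 0.02).

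Markers of dividing cells and of other cell types were read on the same arrays. Of 23 listed cell cycle genes 16 were tested, and 15 were above 0 with a median log2 ratio of 1.04. In limma 14 of 16 had an unadjusted p under 0.05, where 8.90% of all genes did. Only 8 of the 16 were well above background in all 8 livers. The filter asked for 4 of 8 channels, so a gene could pass on its mutant livers alone. All 13 tested of 15 Kupffer cell markers were above 0 (median 0.66), each with an unadjusted p under 0.05, against the same 8.90% of all genes. Their summed log2 level was 15.5 to 16.1 in mutant and 14.8 to 15.7 in wild-type livers. Of 9 neutrophil markers 5 were tested, all above 0 (median 0.64), with a summed level of 12.4 to 12.9 in mutant and 11.1 to 12.5 in wild-type livers, while Ly6g, Mpo, Ngp and Ltf did not pass the filter on dim probes. Only 1 of the 5 tested neutrophil markers had the same sign on all 4 arrays, and their median ratio on array 1 was −0.09. The median log2 ratio of the tested markers was 0.03 for hepatocytes, 0.02 for lymphocytes, −0.02 for endothelial cells, 0.07 for stellate cells, −0.05 for cholangiocytes and −0.13 for red cells. None of the cell cycle, Kupffer cell and neutrophil genes passed after adjustment (lowest adjusted p 0.541). Their part in the ratios of the ribosomal protein mRNAs was not tested.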

How the data were processed

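Livers of 4 mutant and 4 wild-type mice were measured on 4 2-colour arrays, which the labels place on 1 slide, so slide was no batch to compare. Per the file headers, the authors' array files come from Agilent Feature Extraction 10.7.3.1 and give an intensity for each spot in either channel, with marks of another kind (0 or 1) for well above background, saturated and outlier spots. The deposited matrix of the series holds log2 values per sample, read from the values as log2 signals centred per probe, a reading that leaves their exact scale and centring unknown. Set against the scanner signals, they correlated at 0.993 for differences within an array and 0.907 between arrays. Medians of its columns were −0.00533, −0.00751, 0.00941 and 0.00988 in mutants 1 to 4 and −0.0135, −0.00382, −0.000998 and 0.015 in wild types 1 to 4. A further 56 value columns of the array files were left unused.

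Median signals were corrected with normexp (offset 50), normalized by loess within arrays and Aquantile between arrays in limma 3.58.1 under R 4.3.3 (package data.table, version 1.17.8). Control and outlier spots had no weight. The filter kept 22031 of 55681 probes, those well above background in 4 or more of 8 channels. Symbols came from RefSeq accessions (27656 probes, 20972 symbols, 359 NM accessions unmatched), and the probe with the highest mean intensity stood for a gene. Genotype was fitted on log2 ratios with genotype and dye coefficients (2 residual degrees of freedom), sex in a separate-channel fit (groups of genotype and sex, a dye term, within-spot correlation 0.795), and genotype by sex with a coefficient per sex and dye, all with empirical Bayes and Benjamini-Hochberg adjustment over all genes. Arrays pair the livers by construction, and the deviations of both livers of an array correlated at 0.686, 0.177, 0.561 and 0.646. Of 28 pairs of samples, 0 were identical.

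On simulated data of 17531 genes with 200 changed, the genotype fit called 87 of 96 genes changed by 1 and 104 of 104 changed by 2 on the log2 scale, with 19 false calls. The separate-channel sex fit called 0 of 96 and 0 of 104, with an estimated within-spot correlation above the simulated one, and limma on the mean of both channels of each array called 25 of 96 and 103 of 104 with 3 false calls. That fit was therefore added. In the measured data the genotype fit called 0 of 17531 genes, and limma's adjusted p for Pus1, at −2.03, was 0.0567. The simulated shares thus do not give the share of real changes that the genotype fit would call. Motifs were searched and figures drawn with Python 3.11.15, pandas 2.3.3 and matplotlib 3.10.9.

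The members, lists and tests were chosen with earlier results of these data known. Named were members with 1 sign on all arrays (8 at most each way), 5 each way whose sexes were apart within both genotypes, the 4 largest sex differences of the ratio each way, stalk, X-linked and Pus1-near members, paralogs, Fau, Rack1 and Pus1. Some genes are not reported here by name. Rps2, Rps15, Rpl3 and the list members with values were named after their values were seen. Alternatives covered background correction, normalization, filter, probe choice, dye, block and single arrays.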

Additional observations from a re-analysis of the deposited data

Results flagged for a closer look

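In 138 groups of 4 values examined, 8 held a value far from the other 3 (5.8%), where chance gives about 1 in 20. Wild-type liver 1 accounts for 4 of these. It was high for Rps24 (log2 level 16.399), for Rps7 (14.1, against 13.594 as the next) and for the median of the large subunit (0.11903), and low for Rpsa (16.848). Array 2 held the log2 ratio of −0.36691 for Rpsa and of 0.63701 for Rpl21, where the other 3 arrays were within 0.05 of 0. The level of Rpl22 was low in wild-type liver 2 (14.67), and that of Rpl10 was high in mutant liver 1 (17.123). No cause was tested.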

How the results depend on the processing

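Between 0 and 1 members were called for genotype in every alternative tried. The count was 1 without replicate 4 (Rps2) and 0 in all others, the fit with no replicate block included, whose median over the members was −0.0559. The median log2 ratio of all members was −0.00129 with the series table and 0.0585 with median centring in place of loess, which also gave 0.0565 for the large and 0.0732 for the small subunit. Over all genes tested the median was −0.00407 with the series table and 0.0305 with median centring. When single arrays were left out, the median of all members ranged from −0.0773 to −0.0211, the last without array 2. Pus1 passed in 5 alternatives (adjusted p 0.00727 to 0.0435).

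For sex, the members called were 2 with no replicate block for the array (Rps3a1 and Rpl5), 1 on array means, and 0 to 1 when an array was left out (Rps3a1 without array 2). Without single arrays, the small-subunit median ranged from −0.0622 to 0.0977 and the large minus small difference from −0.045 to 0.0701. That difference was 0.0453 with the mean over the probes of a gene.

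Genotype by sex gave 0 calls in 5 settings, and single arrays could not be left out there. The causes of these shifts were not tested. For 6 of 78 members the 95% interval of the genotype ratio reached past a 1.41-fold difference.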
